A study of Mus musculus with 12 samples.

Results

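The comparison was between 2 groups of lungs of offspring labelled prenatal. Mothers of the first group had breathed cigarette smoke during gestation, and mothers of the second were kept in filtered air. The comparison rests on 6 arrays of the 12 in the series, 3 from smoke-exposed and 3 from air offspring. They were chosen by the sample titles and not by any measured value. The other 6 arrays are dams, 3 per exposure, and serve here as a reference for levels, in a fit that adds them to the slide block, and in a test of the difference of smoke effects. All animals were labelled female and of the strain B6C6F1, and no genetic change was listed. Smoke came from 3R4F research cigarettes, mixed 1 part in 50 with air, for 4 h a day on 5 days a week over 18 days until birth. The air groups received filtered air. The labels give the offspring only the stage prenatal, with no age, litter or dam, so pups of one litter may be among the replicates, and the p-values reflect only how far these samples varied.

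In the mouse, the lung branches, forms its gas-exchange sacs and begins to make surfactant in the last part of gestation. Smoke constituents such as nicotine, carbon monoxide and polycyclic hydrocarbons cross the placenta, and maternal smoking is known for its association with reduced lung function in the young. Which genes carried the differences below was not analysed here, since 0 of the 41174 probe identifiers were found in the gene tables used. For the same reason the labels lung, female and prenatal were not checked against marker genes. Probes are therefore described by level and direction, and 4 of them by identifier.

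Levels are given as a percentage of the array's 75th percentile, the scaling factor that divides every probe of an array by the value below which 75% of its probes lie. The 75th percentile was 917, 491 and 549 in smoke replicates 1, 2 and 3 and 840, 868 and 1164 in air replicates 1, 2 and 3. Smoke replicates 2 and 3 were thus the dimmest of the 12 arrays, while smoke replicate 1 lay within the range of the air arrays. Between 64.6% and 67.3% of the probes of an offspring array lay above the background floor, at 1.16% of the 75th percentile. The floor left 27308 probes for testing. The brightest 1% of the probes, 411 in number, held 36.6%, 42.7% and 41.7% of the summed signal in smoke and 35.3%, 36.3% and 32.8% in air. Every smoke array lay above every air array on this measure, with an exact permutation p of 0.1 (two-sided, n = 3 each), the smallest that 3 arrays against 3 allow.

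The 6 arrays separated by exposure over the whole range of probes. The smoke arrays correlated with each other at r = 0.994 to 0.996 across probes, the air arrays at 0.986 to 0.991, and a smoke with an air array at 0.964 to 0.979. Air offspring correlated with air dams at 0.988 to 0.992, within or above the range among the air offspring themselves. By this measure the air offspring were as close to the dams as to each other. Whether the label prenatal holds was not tested. These correlations are across probes, which are not independent replicates. Each array was also placed on a line from the offspring air mean, at 0, to the offspring smoke mean, at 1, with each offspring array placed on a line computed without it. The smoke replicates 1, 2 and 3 lay at 0.884, 1.03 and 0.945. The air replicates lay at 0.118, 0.266 and -0.0778. Dam arrays lay between 0.0951 and 0.152, with the exception of dam smoke replicate 3 at 0.494.

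**Figure D1:**
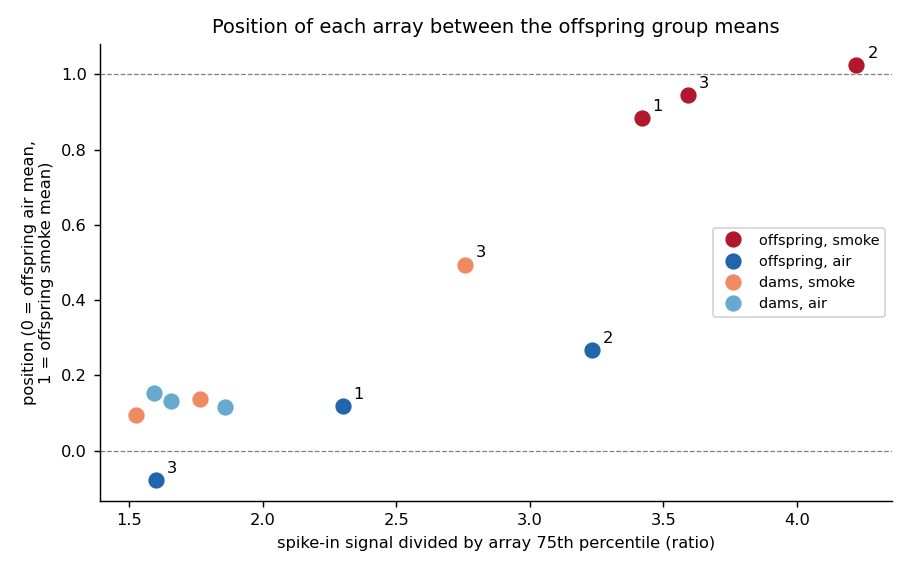
Position of each of the 12 arrays between the offspring group means (vertical axis, 0 is offspring air and 1 is offspring smoke) against the spike-in signal over the array's 75th percentile (horizontal axis, ratio); each point is 1 array, and digits give the replicate. The offspring smoke arrays lie between 0.884 and 1.03 at ratios of 3.42 to 4.22, and dam smoke replicate 3 lies between the groups at 0.494 and 2.76.

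A second quantity moved with this line. The signal of 6 spike-in control probes over the 75th percentile was 3.42, 4.22 and 3.59 in the smoke arrays and 2.30, 3.23 and 1.60 in the air arrays. All smoke arrays were higher than all air arrays, with a log2 difference of 0.71 and an exact permutation p of 0.1 (two-sided, n = 3 each), the smallest possible. Air replicate 2, the air array placed nearest to smoke, also had the highest ratio of its group. It was the air array closest to the smoke mean at 60.6% of the called probes, against 23.3% for air replicate 1 and 16.1% for replicate 3. Among the smoke arrays, replicate 1 was closest to the air mean at 40.1% of them. The log2 ratios within 5 control pairs, whose names differ in a closing 3 or 5 and whose targets the sources used here do not give, overlapped between the groups in 5 of 5 pairs. Their exact permutation p was 0.4 or above (two-sided, n = 3 each).

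Smoke-exposed offspring differed from air offspring at 12803 of 27308 probes, or 46.9%, by limma at a Benjamini-Hochberg adjusted p under 0.05. Of these, 6578 (24.1% of those tested) were higher and 6225 (22.8%) lower in smoke. The lower probes moved further. Their median log2 difference was -0.87, with quartiles of -1.23 and -0.60. The higher probes had a median of 0.63 and quartiles of 0.50 and 0.80. The median over all tested probes was 0.06, and the median standard error 0.15. Beyond a 2-fold difference at this scaling there were 672 higher and 2473 lower called probes, beyond 4-fold 39 and 245, and beyond 8-fold 5 and 7. The smoke and air arrays did not overlap at 16473 probes, 60.3% of those tested, which included 12718 of the called ones. Of these 16473, 8752 (32% of those tested) were higher and 7721 (28.3%) lower.

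How these calls divide into higher and lower depends on how the arrays are scaled. The higher share was 51.4% with the 75th percentile, 63.7% with median scaling, 1.86% with unscaled arrays and 1.29% after scaling by spike-in signal. In the last 3 settings the median log2 difference of all probes moved to 0.19, -0.51 and -0.63. The probes called higher and lower with the 75th percentile had medians of 0.76 and -0.75 with median scaling. They were 0.04 and -1.45 without scaling, and -0.07 and -1.57 with spike-in scaling. These settings change each array by a single factor, which shifts all probes above the floor by the same amount. The similar margin between the 2 sets is therefore fixed and tests nothing. Quantile normalization, which gives all arrays the same distribution, left 6645 higher and 5910 lower, and cyclic loess 5978 and 6326. The medians of the same probes were 0.62 and -0.82 with quantile normalization and 0.58 and -0.86 with cyclic loess. The lower probes thus moved further there and with the 75th percentile, but not with median scaling. Higher and lower are therefore relative to the other probes of the same array. With the spike-in ratio in the fit, limma called 2140 probes, 763 higher and 1377 lower. Leaving out smoke replicate 3 reduced the calls to 8085, and other single arrays left out gave 8556 to 13336. With smoke replicates 2 and 3, the dim pair, left out together, limma called 0 probes and gave 7161 an unadjusted p under 0.05, a fit that rests on 1 smoke array.

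**Figure D2:**
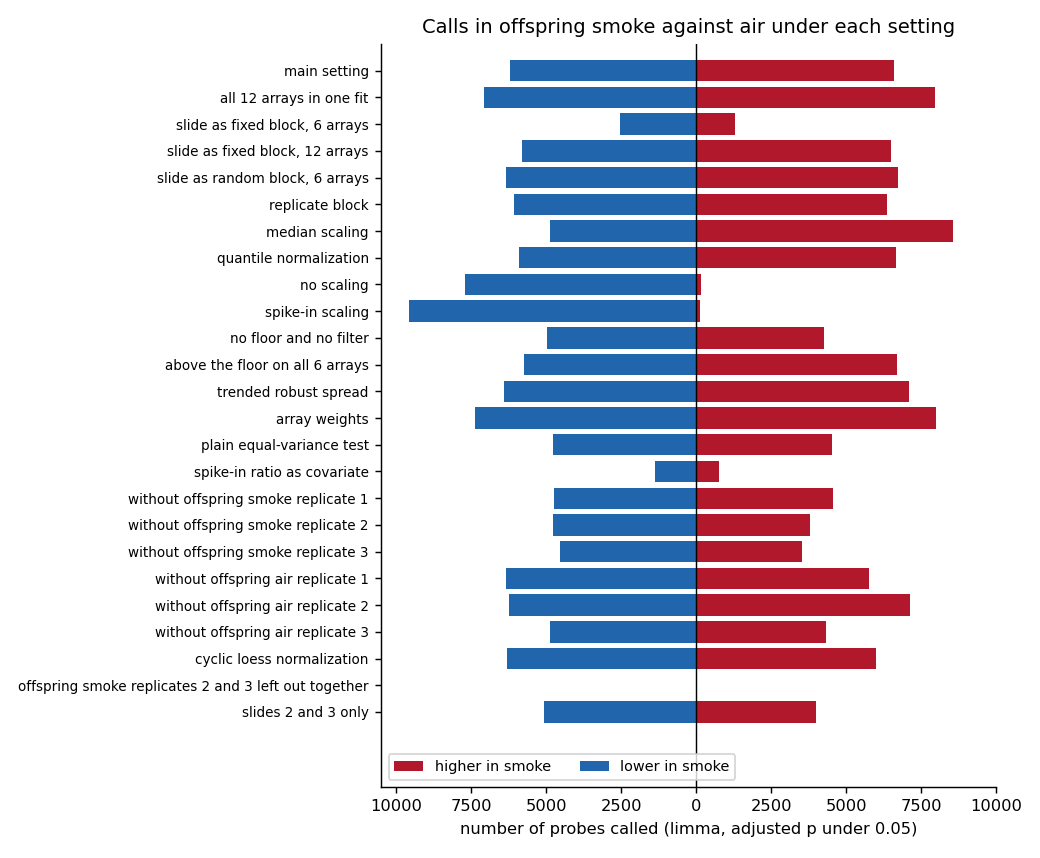
Number of probes called in offspring smoke against air (horizontal axis) under each setting (rows), with higher probes to the right of 0 and lower probes to the left. The 2 sides are of similar length in most settings, whereas without scaling and with spike-in scaling the right side holds 146 and 125 probes.

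With the 75th percentile as scaling, the direction of the calls changed with the level of the probe. How the calls divide by level under other scalings and normalizations was not tested. The tested probes were divided into 10 equal bins by their mean level over the 6 offspring arrays. In the dimmest bin, at a median level of 1.71% of the 75th percentile, 235 probes were higher and 594 lower. In the brightest, at 1508%, 1195 were higher and 341 lower. The share of probes called rose from 30.4% in the dimmest to 56.2% in the brightest bin, while the median standard error was 0.23 and 0.14. The median log2 difference went from -0.15 to 0.37 between these bins, and the bins between them lay between -0.14 and 0.18. At the 75th percentile scaling, lower probes outnumbered higher ones beyond 2-fold in all 10 bins. There were 487 against 103 in the second bin and 68 against 44 in the brightest.

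**Figure D3:**
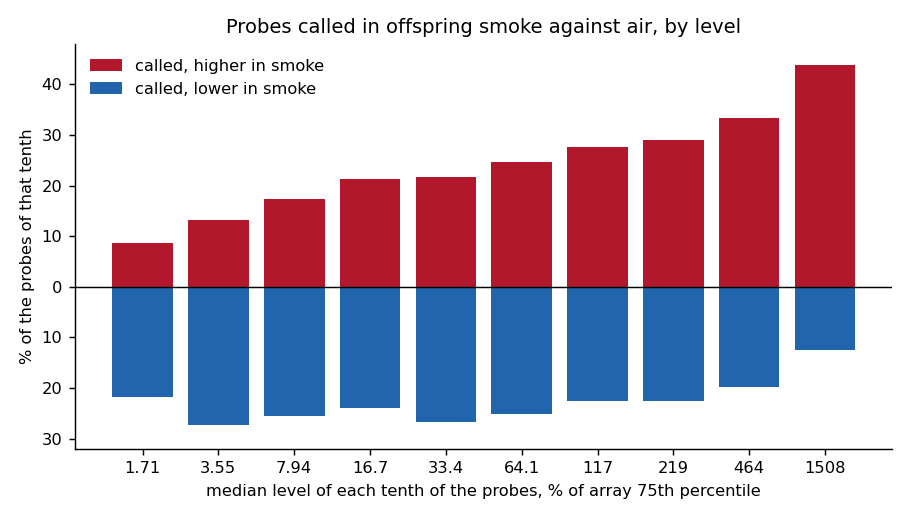
Share of probes called higher (above 0) and lower (below 0) in offspring smoke, for 10 equal bins of tested probes ordered by mean level; the horizontal axis gives each bin's median level in % of the array's 75th percentile. At the 75th percentile scaling, called probes are mostly lower in the dimmest bin (594 of 829) and mostly higher in the brightest (1195 of 1536).

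**Figure D4:**
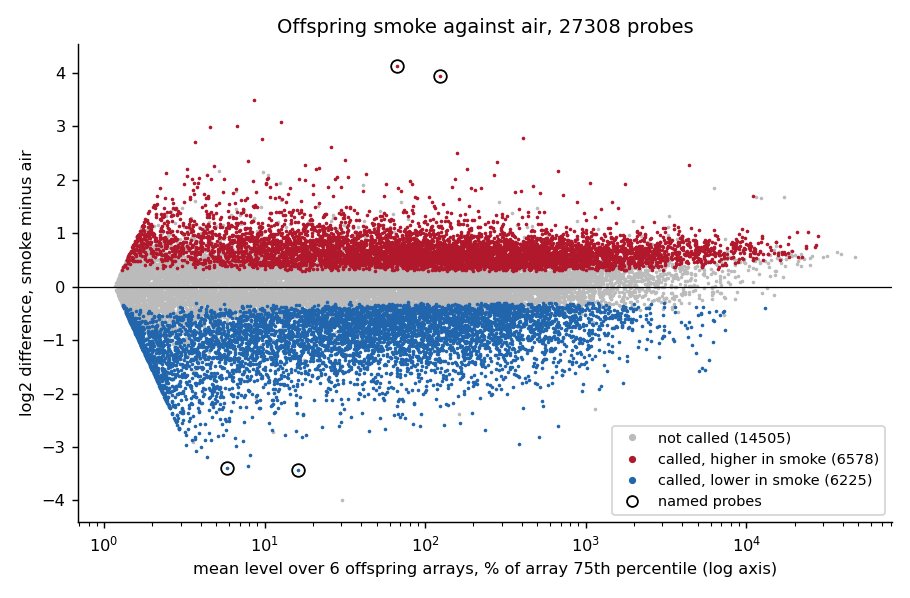
Log2 difference of offspring smoke minus air (vertical axis) against mean level in % of the array's 75th percentile (horizontal log axis) for 27308 probes, with the 4 named probes circled. At this scaling the points below 0 reach further than those above it over most levels. Called probes beyond 2-fold were 2473 lower and 672 higher. The slanted left edge is set by the floor.

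Among the 27308 tested probes, loss of signal was more frequent than gain at the floor with the 75th percentile as scaling. Other scalings were not tested for this pattern. The share of all probes above the floor overlapped between the groups, at 64.6% to 66.1% in smoke and 65.8% to 67.3% in air. Its exact permutation p was 0.2 (two-sided, n = 3 each). At 362 probes all 3 air arrays lay above the floor and all 3 smoke arrays at it, and at 64 probes the reverse held. These probes were picked for that pattern, so no test is given for them. Against the floor the air-only probes were at least 1.90-fold lower in smoke at their median. The largest of these lower bounds was 7.81-fold, and 167 exceeded 2-fold. The smoke-only probes were at least 1.43-fold higher at their median, and 8 exceeded 2-fold. The brightest group mean among the air-only probes was 9.09% of the 75th percentile. Of the air-only probes 121 (33.4%) lay above the floor on all 6 dam arrays, as did 7 (10.9%) of the smoke-only ones. The share of all tested probes above the floor on these dam arrays was not computed, so no result is read from these shares.

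The dam arrays, which took no part in these calls, differed from the smoke offspring at more probes than from the air offspring. Over all tested probes, the 3 smoke offspring arrays lay together above or together below the whole range of the 6 dam arrays at 54.3%, and the 3 air offspring arrays at 8.80%. This measure favours the group that varies less, and the median log2 SD was 0.12 in smoke and 0.20 in air. How much of the gap between these shares comes from that spread was not tested. Among the probes called higher, these shares were 81.9% and 9.49%, and among those called lower 78.5% and 9.77%. Probes called higher had a median log2 difference from dam air of 0.60 in smoke offspring and -0.03 in air offspring. For probes called lower the medians were -0.80 and 0.07. At increases beyond 2-fold the 3 smoke arrays lay outside the dam range at 72.0% of the probes and the 3 air arrays at 24.0%, with median log2 differences from dam air of 0.85 and -0.35. For decreases beyond 2-fold the shares were 81.7% and 7.24%, and the medians -1.25 and 0.12.

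The most strongly lower of the probes named by the rule, A_51_P508781, showed this pattern. It read 4.89%, 5.20% and 4.66% of the 75th percentile in smoke replicates 1, 2 and 3 and 43.5%, 56.4% and 61.7% in air replicates 1, 2 and 3. The lowest air array was thus far above the highest smoke array. On the 6 dam arrays it ranged from 44.4% to 54.9%, with a median of 53.3%, so the smoke offspring alone were low. Limma put the log2 difference at -3.44 ± 0.15 (SE, n = 3 each; adjusted p 6.00e-04). By its rank within the array, which no scaling changes, the probe lay at the 45.8th to 47.1st percentile in smoke and at the 65.9th to 69.5th in air.

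Probe A_51_P515137 read 2.65%, 1.29% and 1.73% in the smoke arrays and 15.8%, 16.3% and 26.2% in the air arrays. Smoke replicates 2 and 3 lay close to the floor of 1.16%, so the size of the decrease is less certain. Dam arrays held the probe at 5.68% to 20.1%, and the lowest of them was dam smoke replicate 3, the dam array placed between the offspring groups. Limma put the log2 difference at -3.39 ± 0.31 (SE, n = 3 each; adjusted p 9.31e-04).

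The increases of the 2 most strongly higher probes rested on low values in air offspring. Probe A_52_P570717 read 252%, 333% and 267% in the smoke arrays and 11.7%, 121% and 2.89% in the air arrays. Air replicate 2 lay nearest to the dam arrays, which read 151% to 255%, and air replicates 1 and 3 lay far below them. Limma put the log2 difference at 4.14 ± 1.20 (SE, n = 3 each; adjusted p 0.0282). Against dam air, smoke offspring were higher by 0.81 on the log2 scale and air offspring lower, at -3.32. Probe A_52_P152133 read 456%, 554% and 454% in smoke and 23.1%, 209% and 6.47% in air, with 297% to 604% on the dam arrays. Its 3 air values fall in the same order as those of A_52_P570717, and whether both probes target one gene is not known here. Limma put the log2 difference at 3.95 ± 1.11 (SE, n = 3 each; adjusted p 0.0260).

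The log2 SD of A_52_P570717 was 2.72 in air and 0.21 in smoke, and that of A_51_P508781 was 0.26 and 0.08. When the fit included the spike-in ratio, the log2 differences of A_52_P570717 and A_52_P152133 were 0.64 and 0.71, with adjusted p of 0.489 and 0.439 in limma. Those of A_51_P508781 and A_51_P515137 were -3.38 and -2.76, with adjusted p of 0.0279 and 0.0318. Leaving out any single array other than air replicate 2 ended the call of both higher probes, with adjusted p of 0.0551 to 0.0884 for A_52_P570717 and 0.0515 to 0.0825 for A_52_P152133 in limma. Without air replicate 3 their log2 differences were 2.90 and 2.81. Without air replicate 2 they were 5.59 and 5.31, with adjusted p of 0.00274 and 0.00249. More generally, 69.6% of the tested probes had the larger SD in air, with a median of 0.20 against 0.12 in smoke.

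**Figure D5:**
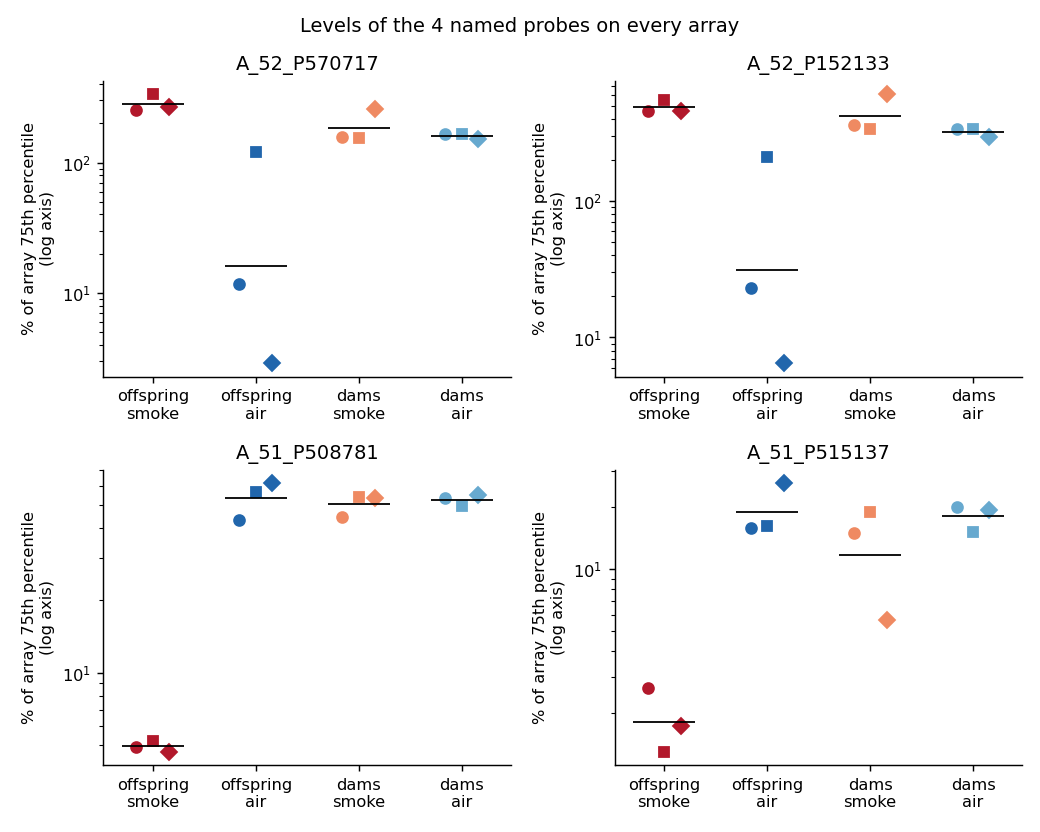
Levels of the 4 named probes on all 12 arrays in % of the array's 75th percentile (vertical log axis), by group; circles, squares and diamonds are replicates 1, 2 and 3, and lines are means of log2 values. The lower probes are low on the 3 offspring smoke arrays, whereas the higher probes are low on offspring air replicates 1 and 3.

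Exposure and slide were partly tied, since smoke replicates 2 and 3 shared slide 2, air replicates 2 and 3 shared slide 3, and replicate 1 of each group lay on slide 1. The arrays of slides 2 and 3 alone gave 9066 calls, 33.2% of the tested probes. On slide 1, whose 2 arrays took no part in that fit, 92.9% of these probes differed in the same direction, against 81.3% of all tested probes. Probes called higher on slides 2 and 3 had a median log2 difference of 0.77 there and 0.69 on slide 1, and those called lower -1.01 and -0.94. Slide 1 holds 1 array of each group, so its values alone have no test. With slide as a fixed block in the 6 offspring arrays, the difference is that of slide 1 and its error comes from slides 2 and 3. That fit called 3824 probes, and 12310 were called when the 6 dam arrays were added. In the fit of 6 arrays A_51_P508781 and A_51_P515137 gave -3.15 and -2.58, with adjusted p of 0.0106 and 0.0181 in limma. A_52_P570717 and A_52_P152133 gave 4.42 and 4.30 and lost their calls, with adjusted p of 0.194 and 0.179. The named probes were chosen on all 6 arrays, slide 1 included, so the direction of these values is fixed by that choice.

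The difference between smoke and air in offspring was set against that in dams as a difference of effects in 1 fit of all 12 arrays. It passed the threshold at 6687 of 28185 probes, or 23.7%. The 4 named probes were chosen for a large offspring difference, which is a part of this contrast. Their direction here is largely set by that choice, and their p-values are no independent test. A_51_P508781 differed by -3.38 (adjusted p 5.68e-05) and A_51_P515137 by -2.77 (adjusted p 0.0109) in limma. The latter call was lost with spike-in scaling (adjusted p 0.0817) and with slide as a fixed block, which gave -2.11 and an adjusted p of 0.143. A_52_P570717 and A_52_P152133 differed by 3.94 and 3.57 and did not pass, at adjusted p of 0.0572 and 0.0634 in limma. Nor did they pass in 18 and 19 of 21 alternatives. Both passed in limma without scaling (adjusted p 0.0169 and 0.0233) and without offspring air replicate 2 (0.00331 and 0.00341). A_52_P570717 also passed with median scaling (0.0481). In dams the 4 probes had log2 differences of -0.06, -0.62, 0.19 and 0.37 in this order. Limma called 0 of the 28185 probes in dams and gave 1166 an unadjusted p under 0.05. The count for the difference of effects was 3236, 3074 and 8610 without dam smoke replicates 1, 2 and 3 in turn. Without dam air replicates 1, 2 and 3 it was 3246, 5693 and 4347. Leaving out offspring smoke replicates 1, 2 and 3 gave 5299, 4151 and 3918. Leaving out offspring air replicates 1, 2 and 3 gave 6530, 8920 and 4353. Slide as a fixed block left 42 probes. Dam smoke replicates 1 and 2 lay on slide 1, dam air replicates 1 and 2 on slide 2, and both dam replicates 3 on slide 3. Exposure and slide were thus partly tied in dams as well, and their parts in the difference of effects cannot be fully told apart.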

How the data were processed

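Per the labels' protocols, 500 ng of lung total RNA was labelled with Cy5 and a universal mouse reference with Cy3 for Agilent arrays. The deposited intensity values are linear and their percentiles differ between arrays; software, background step and channel are not given in the sources used here, and differences would not be of lung RNA if the channel were the reference. Of 41267 rows, 93 are controls. Each array was divided by its 75th percentile over the other 41174, floored at the highest scaled background of the 6 arrays (the 95th percentile of 50 controls without target) and converted to log2. The floor understates changes of dim probes. Probes above it on at least 3 of the 6 arrays were tested, 13866 were left out, and the number of arrays limits the precision.

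Tests used limma 3.58.1 in R 4.3.3 (lmFit, eBayes, two-sided, 4 residual degrees of freedom). The 12-array fit used the same steps over all arrays. The members and lists were chosen with earlier results of these data known. Named probes were the 2 highest and 2 lowest log2 differences among called probes above the floor on all 6 arrays without overlap. The planned rule had been written for genes, and 61 gene lists were not tested. On simulated data with 200 of 27308 probes changed, 67% of changes of 1 and 88% of changes of 2 log2 units were called, with 10 false calls. For the difference of effects, with 200 of 28185 probes changed, these values were 34% and 84%, with 7 false calls. Far more probes were called in the real data, so these rates may not carry over to them. No 2 offspring arrays shared a value, and none was counted as a duplicate. Alternatives are in the closing section; cyclic loess, the fit without smoke replicates 2 and 3, and slides 2 and 3 alone were added after seeing the data. Summaries and plots were made in Python 3.11.15 (pandas 2.3.3, numpy 2.4.6, matplotlib 3.10.9).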

Additional observations from a re-analysis of the deposited data

Results flagged for a closer look

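The smoke difference itself differed between offspring and dams at 6687 probes by the test of the difference in limma. The cause was not tested.

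A signal outside the probe comparison, the spike-in controls over the 75th percentile, was higher in smoke than in air offspring by 0.71 on the log2 scale. Over 7 alternatives it ranged from 0.45 to 0.96, with exact permutation p of 0.1 or 0.2 (two-sided, n = 2 or 3 per group), where 3 against 3 cannot go below 0.1.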

How the results depend on the processing

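Of 24 alternatives, 19 left the total count of offspring calls, whatever their direction, within 1.5 times of 12803. The exceptions were slide as a fixed block in the 6 arrays (3824), no scaling (7853), the spike-in ratio as a covariate (2140), smoke replicates 2 and 3 left out together (0) and smoke replicate 3 left out (8085). Spike-in scaling counts among the 19 by its total alone. It called 125 probes higher and 9590 lower, and 6335 of its calls were shared with the main setting. Single arrays left out gave 8085 to 13336. The covariate takes 1 of 4 residual degrees of freedom and rises with exposure. Without scaling or with spike-in scaling the prior degrees of freedom of limma were infinite, so all probes shared 1 spread and p-values of single probes are not given there. The difference of effects moved from 6687 to 42 with slide as a fixed block, 4449 with the replicate block, 10 with spike-in scaling and 4215 without floor and filter, and to between 3074 and 8920 without single arrays. The cause was not tested. The replicate block gave 12403 offspring calls, and the deviations of same-numbered arrays correlated at 0.00962, 0.227 and 0.00360, so the numbers were not taken to pair the samples. For offspring smoke against air, A_52_P570717 and A_52_P152133 each lost their call in 12 of 25 alternatives, A_51_P508781 and A_51_P515137 in 1, with the dim pair left out. Slide 1 alone, 1 of these 25, gives a value for the named probes but no test and no count of calls, so no call could be lost there. Its values for A_51_P508781 and A_51_P515137 were -3.15 and -2.58. They were smaller in size than in the main fit by more than the larger group SD. Signal over background limits the dim probes, of which 13866 were not tested.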

Other observations

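A set of 1044 probes, 8.15% of the 12803 calls, was called in the same direction in all 22 planned settings, the main one included. It held 11 higher and 1033 lower probes, with median log2 differences of 1.91 and -1.37. No scaling and spike-in scaling, which are among these settings, called only 146 and 125 higher probes, which limits the higher side. Over the 6 scalings 107 higher and 4581 lower probes were called in all, and over the 4 that align the arrays on probe values (75th percentile, median, quantile and cyclic loess) 5473 and 4583. Without the settings of no scaling and of spike-in scaling, the other 20 settings shared 216 higher and 1033 lower probes.

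The array carries probes of 2 identifier series. Of 13619 tested probes starting A_51_P, 3529 were higher and 2844 lower in smoke, and of 13689 starting A_52_P, 3049 and 3381. The shares called were 46.8% and 47.0%.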
